A study of Mus musculus with 14 samples.

Results

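The mouse major histocompatibility complex (MHC) is described here as open chromatin. It was taken as chr17:33900000-37500000 of the mm10 build, and its members are the 7200 windows of 500 bases in that interval, out of 5267565 windows on chromosomes 1 to 19 and X. Every window was used and no measured value chose them. The study sorted cells from the back skin of female mice aged 24 months (aged) or 2 months (young), named C57B8 in one field of the labels and C57B6 in another, with no MHC haplotype given, and the sorts were lineage-negative and integrin α6-high. Epidermal stem cells (EpdSC) were CD34-negative and Sca1-positive, and hair follicle stem cells (HFSC) were CD34-positive and Sca1-negative. ATAC-seq, in which a transposase cuts accessible DNA, gave 1 library each for aged EpdSC, young EpdSC, aged HFSC and young HFSC. RNA-seq gave 2 libraries for each of the same 4 groups, 8 in all. The labels do not say that the replicate libraries came from separate animals, so the p-values measure the spread between these libraries, which may be technical.

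The MHC holds the genes for class I molecules, which show peptides from inside the cell to CD8 T cells, and for class II molecules, which show peptides to CD4 T cells. Between them lie the genes for the transporter and the proteasome subunits that supply class I molecules with peptides, and a dense stretch of complement, cytokine, stress and housekeeping genes. Classical class I genes are expressed by most nucleated cells and are induced by interferons, through a response element close to the start site, while class II genes are mainly expressed by professional antigen-presenting cells and depend on the transactivator Ciita. In skin, keratinocytes carry class I, and Langerhans cells carry class II.

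The promoters of the presentation genes that the comparisons turn on are shown for the 250 bases before the start site, as RefSeq gives them on GRCm38.p6, the assembly of mm10. Each runs 5′ to 3′ in the direction of its gene. Capitals mark matches to GAANNGAAA, to the longer interferon-stimulated response element or to the gamma-activated site TTCNNNGAA, on either strand. GAANNGAAA was added to the search after the sequences had been seen.

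H2-K1 (chr17:34000334-34000583, minus strand): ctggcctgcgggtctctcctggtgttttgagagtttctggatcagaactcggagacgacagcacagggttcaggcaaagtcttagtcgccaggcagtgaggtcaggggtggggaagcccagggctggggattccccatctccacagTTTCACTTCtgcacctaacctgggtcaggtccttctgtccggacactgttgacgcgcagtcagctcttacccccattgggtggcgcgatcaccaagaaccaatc

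H2-D1 (chr17:35262844-35263093, plus strand): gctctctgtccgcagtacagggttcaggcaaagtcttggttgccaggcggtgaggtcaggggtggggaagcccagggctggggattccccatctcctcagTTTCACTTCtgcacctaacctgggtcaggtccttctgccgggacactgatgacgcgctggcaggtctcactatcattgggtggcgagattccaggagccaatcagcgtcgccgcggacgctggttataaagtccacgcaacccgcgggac

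H2-Q7 (chr17:35438905-35439154, plus strand): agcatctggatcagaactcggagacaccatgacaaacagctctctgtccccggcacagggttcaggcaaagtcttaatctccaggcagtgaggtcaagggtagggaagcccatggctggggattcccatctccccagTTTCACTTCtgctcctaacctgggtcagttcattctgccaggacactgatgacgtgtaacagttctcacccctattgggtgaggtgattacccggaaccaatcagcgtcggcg

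H2-T22 (chr17:36042743-36042992, minus strand): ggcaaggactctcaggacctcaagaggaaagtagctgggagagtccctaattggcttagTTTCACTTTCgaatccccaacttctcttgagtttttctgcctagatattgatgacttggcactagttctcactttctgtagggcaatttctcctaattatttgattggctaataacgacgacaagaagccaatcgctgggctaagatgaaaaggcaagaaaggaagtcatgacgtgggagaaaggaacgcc

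H2-M3 (chr17:37269984-37270233, plus strand): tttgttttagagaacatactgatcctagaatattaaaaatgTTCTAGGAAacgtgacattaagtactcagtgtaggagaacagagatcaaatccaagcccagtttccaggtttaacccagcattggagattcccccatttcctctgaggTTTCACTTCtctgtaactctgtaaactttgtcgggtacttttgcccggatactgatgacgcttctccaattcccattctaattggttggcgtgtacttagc

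H2-M2 (chr17:37483555-37483804, minus strand): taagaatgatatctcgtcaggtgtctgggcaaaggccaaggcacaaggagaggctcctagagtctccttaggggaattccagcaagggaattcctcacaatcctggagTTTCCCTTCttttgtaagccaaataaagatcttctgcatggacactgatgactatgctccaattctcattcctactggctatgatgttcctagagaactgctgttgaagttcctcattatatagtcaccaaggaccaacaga

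Psmb8 (chr17:34197945-34198194, plus strand): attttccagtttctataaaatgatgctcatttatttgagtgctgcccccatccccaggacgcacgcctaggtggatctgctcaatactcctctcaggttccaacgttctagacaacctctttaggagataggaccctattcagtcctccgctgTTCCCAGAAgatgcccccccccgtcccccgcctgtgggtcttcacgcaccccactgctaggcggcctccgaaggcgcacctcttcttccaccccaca

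H2-Eb1 (chr17:34305617-34305866, plus strand): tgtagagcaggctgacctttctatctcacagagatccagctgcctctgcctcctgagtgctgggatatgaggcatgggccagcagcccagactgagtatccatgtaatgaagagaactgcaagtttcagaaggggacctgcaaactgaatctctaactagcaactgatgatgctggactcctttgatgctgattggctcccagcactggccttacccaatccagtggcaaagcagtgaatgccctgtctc

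The same 9 letters, TTTCACTTC, were found in H2-K1 at 104 bases and in H2-D1 at 150 bases before the start site, counted from the first letter of the match. H2-Q7 held them at 113 bases and H2-M3 at 101 bases. H2-T22 held the full interferon-stimulated element, TTTCACTTTC, at 191 bases, and H2-M2 held TTTCCCTTC at 142 bases. Of promoters not printed here, H2-T23 also held the full element, as TTTCTCTTTC at 124 bases, and H2-Q4 held TTTCACTTC at 153 bases. GAANNGAAA was found in 8 of 23 class I promoters (34.8%), against 6.35% of all 26794 promoters in the RefSeq table. Since it was added after these promoters had been seen, that share is no test of enrichment. The full interferon-stimulated element was found in 2 of the 23 (8.70%, against 3.01%) and the gamma-activated site in 2 (8.70%, against 7.18%). The AP-1 (8.70% against 6.85%), NF-kB (43.5% against 46.4%) and p63 (65.2% against 65.6%) motifs lay near the share of all promoters. The CCAAT box, searched as CCAAT, was found in 20 of the 23 (87.0%), against 34.5% of all. The class II gene H2-Eb1 and the proteasome gene Psmb9 held neither interferon element in this window, and Psmb8 held TTCCCAGAA. Many of the class I genes arose by duplication and share sequence, so these promoters are not independent of each other. The motif letters are a description of the sequence and were not measured in these cells.

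The 4 ATAC libraries held 22933001 counts in aged EpdSC, 37322834 in young EpdSC, 8243611 in aged HFSC and 26169738 in young HFSC on these chromosomes. Levels are given as CPM, the counts scaled to equal totals. Aged HFSC stood apart. Of its counts, 16.2% lay in windows that reached 4 CPM in any library, against 32.2% in aged EpdSC, 30.3% in young EpdSC and 31.0% in young HFSC. Across the genome the median ratio of such windows was displaced, by -1.0 on the log2 scale for aged over young HFSC and by 1.29 for EpdSC over HFSC at 24 months, so counts of windows that use this library are given both as they stand and relative to those medians. The 2-month comparison (median 0.04) and the age comparison in EpdSC (median 0.10) do not use it. With 1 ATAC library per group no test was run on ATAC values, and their 95% intervals cover counting error only. The RNA libraries held 25126808 to 35905505 counts. Cd34 RNA reached 1147 and 1189 CPM in aged HFSC and 1886 and 1735 CPM in young HFSC, and stayed at or below 1.84 CPM in every EpdSC library. The RNA of Ly6a, which encodes Sca1, was 135 to 206 CPM in EpdSC and 0.417 to 1.97 CPM in HFSC. Both sort markers thus separated the groups as labelled.

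The locus was richer in accessible DNA than an even spread over the genome would give. An even spread would put 1367 CPM into the locus. It held 3281 CPM in aged EpdSC (95% interval 3258 to 3305), 3077 CPM in young EpdSC (3059 to 3095), 2046 CPM in aged HFSC (2015 to 2077) and 2673 CPM in young HFSC (2653 to 2693). Both EpdSC libraries thus lay above both HFSC libraries, and the ages of EpdSC lay close together. A window was called open at 4 CPM or more. Of the 7200 windows, 198 were open in aged EpdSC, 185 in young EpdSC, 71 in aged HFSC and 140 in young HFSC. This was 2.75%, 2.57%, 0.986% and 1.94% of the locus, against 0.735%, 0.711%, 0.250% and 0.635% of the whole genome in the same libraries. In all, 223 windows were open in at least 1 library and 67 in all 4 libraries. The 223 windows held 1590 CPM in aged EpdSC, 1434 CPM in young EpdSC, 742 CPM in aged HFSC and 1375 CPM in young HFSC. The other windows of the locus held 1691, 1643, 1303 and 1297 CPM in that order. At 2 months most of the difference in the locus sum thus lay in windows not called open.

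Neighbouring open windows formed 120 open regions, 72 of them within 1000 bases of a RefSeq start site and 48 farther away, called distal here. Some locus genes have no start site in the RefSeq promoter table, so distal regions and windows can lie at the end of such a gene. Among them are chr17:34850001-34850500, which holds an end of Skiv2l and of Nelfe, and chr17:35823001-35823500, which holds an end of Flot1. Regions were 500 to 3000 bases long. The level of a region is the sum over its windows, and its mean level is the mean of that sum over the libraries. Long regions therefore tend to rank higher, and the first named below is the longest, at 3000 bases. The region with the highest mean level (chr17:35699501-35702500) covered the start of Ddr1, a collagen receptor, with 51.6 CPM in aged EpdSC, 49.8 CPM in young EpdSC, 27.7 CPM in aged HFSC and 55.6 CPM in young HFSC. The next was chr17:34603001-34605000 near the start of Agpat1, an enzyme of phospholipid synthesis, with 41.4 CPM in aged EpdSC, 34.0 CPM in young EpdSC, 22.8 CPM in aged HFSC and 42.1 CPM in young HFSC. The next 3 covered the starts of Mrps18b and Ppp1r10, of BC051226 and the transcriptional repressor Daxx, and of Gm19412 and Tapbp, which encodes tapasin, the chaperone that loads class I peptides. In all 5 regions young HFSC was within the range of the EpdSC libraries or above it, and aged HFSC was lowest.

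Open regions were spread unevenly. The stretch of 497 kb around Pou5f1 to Gnl1 held 37 regions, and the gene-dense class III stretch of 699 kb held 33. The H2-K stretch of 191 kb held 14 regions, and 8.38% of its windows were open in some library, the highest share of the 9 stretches. The H2-M10 stretch, which holds class I genes of the vomeronasal organ, had none in 553 kb. There the summed level per 100 kb was 18.6 CPM in aged EpdSC, 20.02 CPM in young EpdSC, 28.8 CPM in aged HFSC and 22.1 CPM in young HFSC, below the genome's mean of 38.0 CPM per 100 kb. The H2-D and H2-Q stretch held 5 regions in 243 kb, and in 17.1% of its windows all 4 libraries had a count of 0. Near-identical class I copies lie there, and whether reads that match several copies were kept is something the sources used here do not give.

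**Figure D1:**
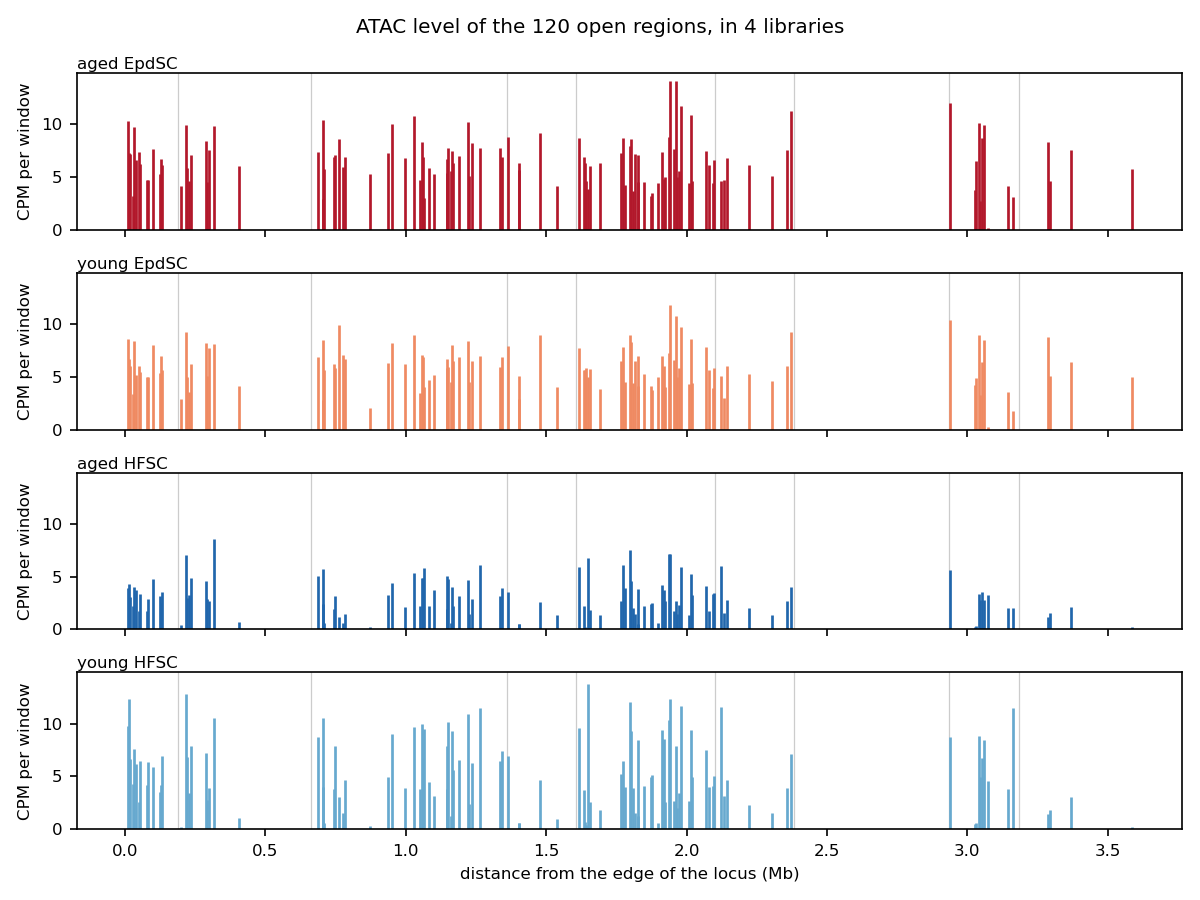
ATAC level of the 120 open regions, as mean CPM per 500-base window, against distance in Mb from the low edge of the locus, 1 panel per library. Grey lines part the 9 stretches, and the gap without regions is the H2-M10 stretch of 553 kb. Aged HFSC is lowest at most regions, though above both EpdSC libraries at a few.

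At 2 months, EpdSC and HFSC differed at few windows of the locus. Of 205 windows that reached 4 CPM in one of the young libraries, 19 were at least 4-fold higher in young EpdSC (9.27%), against 12.4% of all such windows in the genome. Only 2 were at least 4-fold lower (0.976%), against 13.8% in the genome, so the locus held a smaller share of windows that favoured HFSC than the genome did. With TMM scaling, which equalizes the open windows, 11 were higher (genome 9.91%) and 2 lower (15.1%). The windows within 1000 bases of a start site gave 6 higher and 0 lower of 132 (genome 3.19% and 1.74%). The distal windows gave 13 higher and 2 lower of 73 (genome 17.4% and 20.4%). At 24 months 39 of 202 were 4-fold higher in aged EpdSC and 0 were lower, against 26.0% and 4.07% of the genome. Relative to the genome's median of 1.29, a setting added after the data were seen, 14 of the 39 remained 4-fold higher and 4 of 202 were lower (genome 6.92% and 6.51%). TMM scaling gave 13 higher and 4 lower of 189 (genome 6.03% and 16.6%). Of the 19 windows higher at 2 months, 16 were also among the 39 at 24 months (84.2% of the 19 and 41.0% of the 39). Over all windows of the genome the same shares were 81.5% and 46.2%, so the overlap in the locus was near that of the genome. These comparisons share no library.

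The largest ratio at 2 months was upstream of H2-M2, a non-classical class I gene. The region chr17:37485001-37486000 lay 1447 bases from its start site and had 11.6 CPM in aged EpdSC, 9.99 CPM in young EpdSC, 0.485 CPM in aged HFSC and 0.344 CPM in young HFSC. Both HFSC libraries were near 0 and both EpdSC libraries were open, with a log2 ratio of 4.78 (3.92 to 6.00) at 2 months. Cdsn encodes corneodesmosin, an adhesion protein of the outer epidermis. The region at its start (chr17:35543501-35544000) had 4.67 CPM in aged EpdSC, 5.81 CPM in young EpdSC, 0 CPM in aged HFSC and 0.344 CPM in young HFSC, and a distal region 3101 bases from the start (chr17:35539501-35540000) had 6.28 CPM in aged EpdSC, 5.6 CPM in young EpdSC, 0.243 CPM in aged HFSC and 0.65 CPM in young HFSC. The count of 0 in aged HFSC allows up to 0.364 CPM (3 counts). Their log2 ratios at 2 months were 4.00 (3.13 to 5.23) and 3.07 (2.39 to 3.91). A distal region (chr17:35304501-35305000) between H2-D1 and the H2-Q genes, 37307 bases from the nearest start site (H2-Q2), had 6.28 CPM in aged EpdSC, 5.12 CPM in young EpdSC, 0.485 CPM in aged HFSC and 0.535 CPM in young HFSC, which was a log2 ratio of 3.21 (2.48 to 4.16).

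Inside Tnxb, which encodes the matrix protein tenascin X, the region chr17:34675001-34677000 had 23.8 CPM in aged EpdSC, 28.3 CPM in young EpdSC, 2.43 CPM in aged HFSC and 5.92 CPM in young HFSC. Its log2 ratio at 2 months was 2.25 (2.01 to 2.51), and 3 of its windows were among the 19. A second region inside the gene, near its low-coordinate end (chr17:34661001-34661500), had 8.59 CPM in aged EpdSC, 9.86 CPM in young EpdSC, 1.21 CPM in aged HFSC and 3.02 CPM in young HFSC, with the same direction. At 7892 bases from the start of Ubd, a ubiquitin-like protein induced by interferon, chr17:37185501-37186000 had 8.29 CPM in aged EpdSC, 8.79 CPM in young EpdSC, 1.21 CPM in aged HFSC and 1.41 CPM in young HFSC. A region 24213 bases from Ier3, an immediate early gene (chr17:35797001-35797500), had 4.45 CPM in aged EpdSC, 4.98 CPM in young EpdSC, 0.607 CPM in aged HFSC and 0.535 CPM in young HFSC, and one 7709 bases from 1700031A10Rik (chr17:36931501-36932500) had 13.0 CPM in aged EpdSC, 9.75 CPM in young EpdSC, 0.607 CPM in aged HFSC and 1.07 CPM in young HFSC. In each of these 5 regions both EpdSC libraries lay above both HFSC libraries.

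At 2 months 5 regions were at least 2-fold lower in EpdSC, all of them distal. Start-site regions that were lower stayed under 2-fold, the lowest being that of Zbtb22 with a log2 ratio of -0.88 (-1.06 to -0.71). The region chr17:36974501-36975000, 6237 bases from 2410137M14Rik, had 0.174 CPM in aged EpdSC, 0.268 CPM in young EpdSC, 3.28 CPM in aged HFSC and 4.59 CPM in young HFSC. Its log2 ratio at 2 months was -4.03 (-5.19 to -3.17), and both EpdSC libraries were near 0. Inside Gabbr1, which encodes a subunit of the GABA-B receptor, chr17:37061501-37062000 had 3.1 CPM in aged EpdSC, 1.74 CPM in young EpdSC, 2.06 CPM in aged HFSC and 11.5 CPM in young HFSC, so that young HFSC was the one high library. Smaller differences lay near H2-T23, near Cdsn and near Hspa1b, an inducible heat shock protein. The region chr17:36023501-36024500, 8201 bases from the H2-T23 start, had 9.16 CPM in aged EpdSC, 10.21 CPM in young EpdSC, 12.0 CPM in aged HFSC and 23.2 CPM in young HFSC, with a log2 ratio at 2 months of -1.18. The region chr17:34964501-34966000, 5263 bases from the Hspa1b start, had 9.03 CPM in aged EpdSC, 12.2 CPM in young EpdSC, 17.3 CPM in aged HFSC and 28.3 CPM in young HFSC, with a log2 ratio at 2 months of -1.22 (-1.39 to -1.05). The region chr17:35549501-35550000 lay 2128 bases from another annotated Cdsn start than the one whose region favoured EpdSC. It had 3.88 CPM in aged EpdSC, 4.98 CPM in young EpdSC, 6.79 CPM in aged HFSC and 13.8 CPM in young HFSC, with -1.46 (-1.73 to -1.21).

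**Figure D2:**
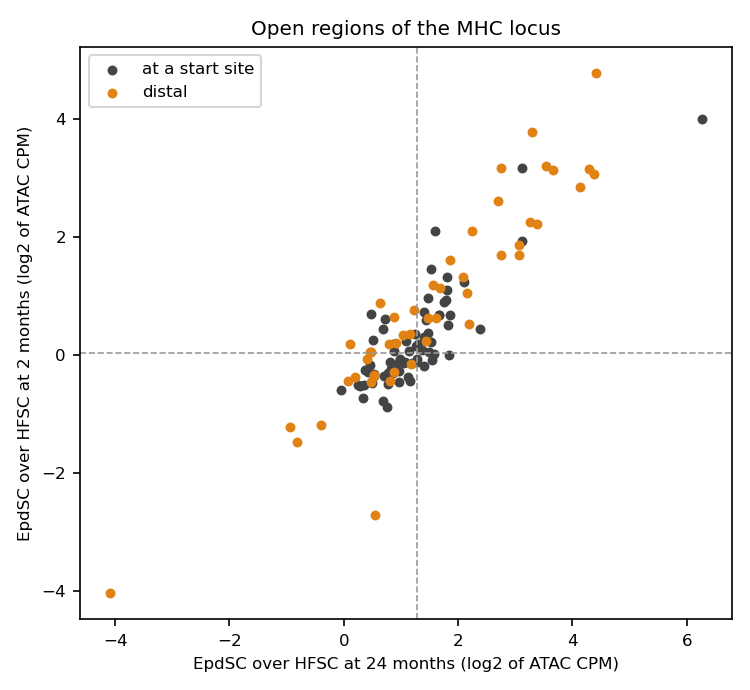
Log2 ratio of ATAC CPM, EpdSC over HFSC, at 24 months (x) and 2 months (y) for the 120 open regions, including those under 4 CPM in both libraries of a pair. Dashed lines are the genome medians of 1.29 and 0.04; most points far from their crossing are distal regions.

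Start sites were summed over the windows within 1000 bases. Where a gene had several start sites, the one with the highest mean CPM over the ATAC libraries was taken. Genes were compared where both libraries together had 20 counts or more. The median log2 ratio at 2 months was 0.15 over 176 locus genes and 0.06 over 24568 genes. Ratios at least 2-fold above the median of all genes were held by 9.23% of all genes and ratios 2-fold below by 8.22%. At 24 months these shares were 6.76% and 22.1%. Of 22 class I start sites compared at 2 months, 8 were 2-fold above and 0 below, with a median of 0.43 relative to all genes. They were H2-Q2, H2-Q6, H2-Q7, H2-Q10, H2-M2, H2-M3, H2-M5 and H2-M10.6. Among them only H2-Q7 and H2-M3 had an open region within 1000 bases of the start, and that of H2-M2 lay 1447 bases away. H2-M10.6 lay under 1 CPM in every library, as did H2-M9 and the other H2-M10 genes except where aged HFSC reached 1.09 CPM. At 24 months 1 of 18 was above, H2-M2, and 6 were below, all of them with under 2 CPM in every library.

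H2-K1 and H2-D1 encode the classical class I heavy chains. The H2-K1 start had 19.8 CPM in aged EpdSC, 20.1 CPM in young EpdSC, 10.7 CPM in aged HFSC and 14.1 CPM in young HFSC, and H2-D1 had 24.1 CPM in aged EpdSC, 21.8 CPM in young EpdSC, 8.61 CPM in aged HFSC and 16.4 CPM in young HFSC. In both genes the EpdSC libraries lay above the HFSC libraries, with log2 ratios at 2 months of 0.52 (0.34 to 0.70) for H2-K1 and 0.41 (0.24 to 0.59) for H2-D1. H2-Q4, a non-classical gene, had 23.6 CPM in aged EpdSC, 22.3 CPM in young EpdSC, 6.91 CPM in aged HFSC and 12.4 CPM in young HFSC, with a ratio of 0.84 (0.66 to 1.03). H2-Q7 encodes Qa-2, a non-classical molecule anchored in the membrane by a lipid. It had 8.72 CPM in aged EpdSC, 8.39 CPM in young EpdSC, 2.79 CPM in aged HFSC and 1.87 CPM in young HFSC, and its ratio of 2.15 (1.73 to 2.63) was the second largest of the class I start sites. H2-Q6 and H2-Q7 are near-identical, as are H2-T10 and H2-T22, and Hspa1a and Hspa1b, and H2-K1 and H2-D1 share long stretches, so the values of each pair, in ATAC and RNA alike, are uncertain in how reads were split between copies.

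H2-M3 presents formylated peptides. Its start had 19.8 CPM in aged EpdSC, 16.6 CPM in young EpdSC, 5.94 CPM in aged HFSC and 7.45 CPM in young HFSC, a log2 ratio at 2 months of 1.16 (0.92 to 1.40). H2-M2 had 8.94 CPM in aged EpdSC, 8.04 CPM in young EpdSC, 0.728 CPM in aged HFSC and 0.726 CPM in young HFSC, a ratio of 3.43 (2.80 to 4.22), the largest of all locus start sites with at least 4 CPM. H2-T22, a ligand of some γδ T cells, had 12.5 CPM in aged EpdSC, 11.1 CPM in young EpdSC, 4.49 CPM in aged HFSC and 7.99 CPM in young HFSC. H2-T23 encodes Qa-1, the ligand of the inhibitory receptor NKG2A. It had 12.1 CPM in aged EpdSC, 10.07 CPM in young EpdSC, 3.88 CPM in aged HFSC and 9.02 CPM in young HFSC, and its ratio of 0.16 (-0.08 to 0.40) at 2 months was not distinguishable from 0 at this depth. H2-T10 is taken at the gene end with more counts, since its start is not in the table, and had 15.0 CPM in aged EpdSC, 13.0 CPM in young EpdSC, 4.85 CPM in aged HFSC and 5.43 CPM in young HFSC.

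The processing genes divided. Psmb8 encodes a catalytic subunit of the immunoproteasome, and its start had 21.0 CPM in aged EpdSC, 22.6 CPM in young EpdSC, 7.64 CPM in aged HFSC and 10.203 CPM in young HFSC, a log2 ratio at 2 months of 1.14 (0.94 to 1.35). Psmb9, another such subunit, and Tap1, a subunit of the peptide transporter, share a start region. Their windows had 28.0 CPM in aged EpdSC, 27.4 CPM in young EpdSC, 14.8 CPM in aged HFSC and 22.8 CPM in young HFSC for Psmb9, a ratio of 0.27 (0.12 to 0.41). Tapbp had 31.7 CPM in aged EpdSC, 27.3 CPM in young EpdSC, 13.7 CPM in aged HFSC and 30.1 CPM in young HFSC, a ratio of -0.14 (-0.28 to -0.00). Tap2, taken at its gene end, had 9.42 CPM in aged EpdSC, 8.71 CPM in young EpdSC, 4.25 CPM in aged HFSC and 6.84 CPM in young HFSC. Of the 4 with a start site, 1 was 2-fold above the median of all genes at 2 months (Psmb8) and 0 were at 24 months.

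Class II genes encode the peptide-presenting chains and their helpers. H2-Eb1 encodes a class II β chain, and its start had 18.6 CPM in aged EpdSC, 12.9 CPM in young EpdSC, 3.88 CPM in aged HFSC and 4.2 CPM in young HFSC. Both EpdSC libraries lay above both HFSC libraries, and the log2 ratio was 1.62 (1.32 to 1.93) at 2 months. H2-Aa, the α chain, had 4.14 CPM in aged EpdSC, 3.32 CPM in young EpdSC, 1.82 CPM in aged HFSC and 3.17 CPM in young HFSC, and H2-Ab1, taken at its gene end, had 5.93 CPM in aged EpdSC, 4.9 CPM in young EpdSC, 1.46 CPM in aged HFSC and 3.67 CPM in young HFSC. H2-DMa, which edits class II peptides, had 20.6 CPM in aged EpdSC, 17.04 CPM in young EpdSC, 10.9 CPM in aged HFSC and 24.99 CPM in young HFSC, a ratio of -0.55 (-0.71 to -0.39) at 2 months. The open region at this start (chr17:34120501-34123000) also holds a start of Brd2, so these values cannot be assigned to either gene alone. Of 8 class II start sites compared at 2 months, 1 was 2-fold above (H2-Eb1) and 0 below, with a median of -0.12 relative to all genes.

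Outside the presentation genes, Cdsn had 9.99 CPM in aged EpdSC, 11.6 CPM in young EpdSC, 0.364 CPM in aged HFSC and 1.45 CPM in young HFSC, a log2 ratio of 2.98 (2.52 to 3.52) at 2 months. The heat shock gene Hspa1b had 25.4 CPM in aged EpdSC, 21.7 CPM in young EpdSC, 14.9 CPM in aged HFSC and 30.5 CPM in young HFSC, a ratio of -0.49 (-0.64 to -0.35), while Hspa1a and Hspa1l gave 0.03 (-0.32 to 0.39) and 0.04 (-0.31 to 0.40). Ddah2, a member of the dimethylarginine dimethylaminohydrolase family, had 6.15 CPM in aged EpdSC, 4.85 CPM in young EpdSC, 6.19 CPM in aged HFSC and 7.76 CPM in young HFSC, a ratio of -0.68 (-0.97 to -0.38). The 2-fold counts of the other lists at 2 months were 1 above and 0 below of 13 chromatin and transcription genes, 3 and 0 of 16 class III immune genes, 1 and 0 of 9 keratinocyte genes, and 4 and 2 of 23 genes of the distal end.

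**Figure D3:**
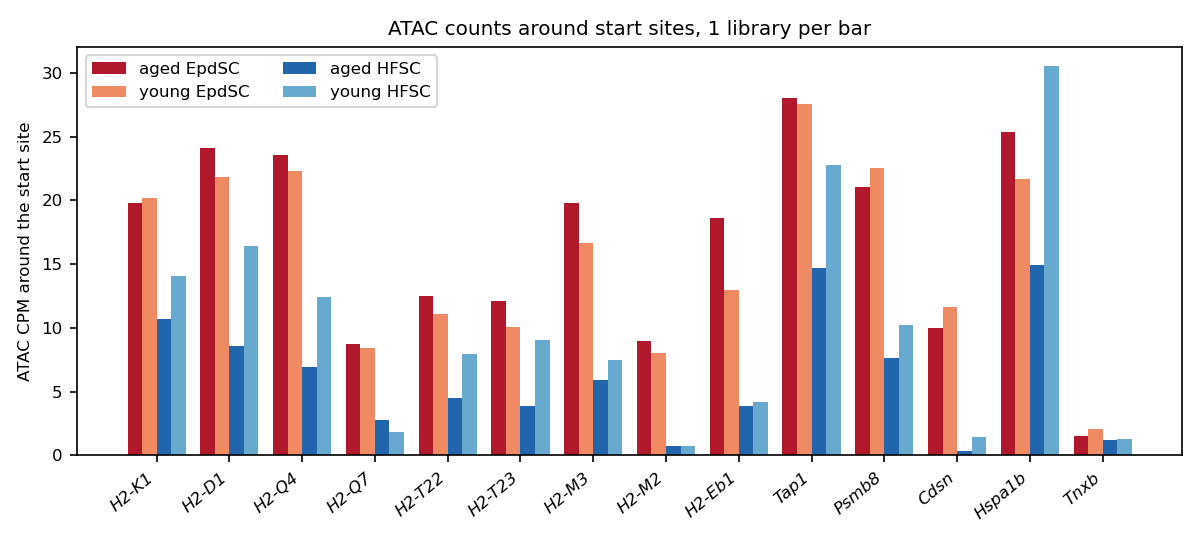
ATAC CPM summed over the windows within 1000 bases of the start site for 14 genes, 1 bar per library, aged EpdSC, young EpdSC, aged HFSC and young HFSC from left to right. H2-M2 and Cdsn show the widest ratios of EpdSC to HFSC at 2 months, and Hspa1b is highest in young HFSC.

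Between the ages, EpdSC differed little in the locus. Of 208 windows, 0 were 4-fold higher and 0 were 4-fold lower in aged EpdSC, against 0.0382% and 0.0% of the genome. The median log2 ratio was 0.17 in the locus and 0.10 in the genome. The largest ratio was chr17:34774001-34774500, with Tnxb as the nearest start site in the table, 103466 bases away, and 5.32 CPM in aged EpdSC, 2.06 CPM in young EpdSC, 0.243 CPM in aged HFSC and 0.267 CPM in young HFSC, a log2 ratio of 1.36 (0.94 to 1.80). A distal region near 2300002M23Rik (chr17:35590501-35591500) had 12.6 CPM in aged EpdSC, 7.64 CPM in young EpdSC, 2.79 CPM in aged HFSC and 3.67 CPM in young HFSC, and the region at the H2-Eb1 start had 12.0 CPM in aged EpdSC, 8.28 CPM in young EpdSC, 1.33 CPM in aged HFSC and 2.14 CPM in young HFSC. The H2-Eb1 start site as a whole gave a ratio of 0.52 (0.33 to 0.71), aged over young EpdSC, the largest among the locus start sites with at least 4 CPM. The start sites of H2-K1, H2-D1, H2-Q4 and H2-Q7 gave -0.03, 0.14, 0.08 and 0.06, and each interval included 0.

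In HFSC, 0 of 140 windows were 4-fold higher and 1 was 4-fold lower in aged cells, against 0.0% and 2.66% of the genome. The one window was that inside Gabbr1, with 17 counts in aged HFSC and 301 in young HFSC. Its log2 ratio was -2.44 as it stands and -1.44 relative to the median, which is under 4-fold. Relative to the median 0 windows were higher and 0 lower (genome 0.142% and 0.133%), and with TMM scaling 0 of 153 were called in either direction. Of the regions with at least 4 CPM in aged or young HFSC, chr17:34192501-34193500, inside Tap1 and 4695 bases from the start of Psmb8, stood highest relative to the genome's median, with 9.11 CPM in aged EpdSC, 10.07 CPM in young EpdSC, 5.82 CPM in aged HFSC and 5.43 CPM in young HFSC. Its log2 ratio was 0.11 (-0.40 to 0.58), or 1.11 relative to the median. The H2-K1 region (chr17:34000001-34001000) gave -0.32 (-0.70 to 0.04), or 0.68 relative. Start sites had a median of their own, -0.54 over all genes. Relative to it H2-Q7 gave 1.13, H2-K1 0.15, H2-D1 -0.38, H2-Q4 -0.30 and Psmb8 0.13, with no common direction. The open regions at these starts gave 1.58, 0.68, 0.03, 0.18 and 0.46 in that order, relative to the median of windows. Of 21 class I start sites, 8 were 2-fold above the median of all genes and 0 below (all genes 3787 and 364 of 21170). Class I start sites had median levels of 1.09 CPM in aged HFSC and 0.80 CPM in young HFSC. The lower share of counts in open windows moved with aged HFSC in every one of these values, and its part in them was not tested.

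RNA was compared for the 146 genes of the locus that passed the filter on low counts, out of 267 matched by name and 299 placed there. In bulk RNA, fewer cells of a type and less RNA per cell cannot be told apart. By edgeR's quasi-likelihood test with Benjamini-Hochberg adjustment over 21464 genes, 32 rose and 9 fell in young EpdSC against young HFSC (13.0% and 13.1% of all genes). At 24 months 27 rose and 9 fell in aged EpdSC against aged HFSC (12.2% and 11.9%). Of 17 class I genes tested, 10 rose and 0 fell at either age, and the median log2 fold change at 2 months was 2.41. In the other groups at 2 months, 4 of 5 processing genes rose and 0 fell, 3 of 6 class II genes rose and 1 fell, and 2 of 15 class III immune genes rose and 0 fell.

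H2-K1 RNA had 1325 and 1310.1 CPM in aged EpdSC, 1291 and 1342 CPM in young EpdSC, 304 and 723 CPM in aged HFSC and 172 and 205 CPM in young HFSC. The EpdSC libraries of both ages lay above every HFSC library, and the log2 fold change at 2 months by edgeR was 2.80 ± 0.31 (SE, adjusted p = 4e-05). H2-D1 had 1052 and 1092 CPM in aged EpdSC, 963 and 1037 CPM in young EpdSC, 276 and 576 CPM in aged HFSC and 161 and 214 CPM in young HFSC, a change of 2.41 ± 0.28 (SE, adjusted p = 5.74e-05). H2-Q7 had 94.2 and 98.6 CPM in aged EpdSC, 100.4 and 97.5 CPM in young EpdSC, 13.7 and 35.3 CPM in aged HFSC and 8.56 and 7.91 CPM in young HFSC, a change of 3.59 ± 0.35 (SE, adjusted p = 1.19e-05). For all 3 the 2 aged HFSC libraries stood apart from each other, with the second the higher.

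The region upstream of H2-M2 was open in EpdSC alone. H2-M2 RNA had 24.5 and 15.3 CPM in aged EpdSC, 18.5 and 15.0 CPM in young EpdSC, 0.604 and 0.329 CPM in aged HFSC and 0 and 0.0787 CPM in young HFSC. The edgeR log2 fold change at 2 months was 8.70 (adjusted p = 8.59e-07), a value that depends on the prior count since 1 young HFSC library had no count. H2-T23 had 115 and 90.8 CPM in aged EpdSC, 108 and 97.2 CPM in young EpdSC, 115 and 136 CPM in aged HFSC and 115 and 121 CPM in young HFSC, and its change by edgeR at 2 months was -0.21 ± 0.16 (SE, adjusted p = 0.401), unlike H2-K1 and H2-D1. Psmb8 had 43.0 and 50.9 CPM in aged EpdSC, 39.0 and 42.1 CPM in young EpdSC, 8.65 and 17.9 CPM in aged HFSC and 3.63 and 4.6 CPM in young HFSC, a change of 3.30 ± 0.31 (SE, adjusted p = 9.54e-06) by edgeR. Psmb9, Tap1 and Tapbp also rose, by 3.06, 2.10 and 0.59 (adjusted p = 5.81e-05, 0.000103 and 0.024).

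H2-Eb1 had 7.76 and 8.59 CPM in aged EpdSC, 5.79 and 6.94 CPM in young EpdSC, 0.637 and 1.68 CPM in aged HFSC and 0.0999 and 1.57 CPM in young HFSC, an edgeR change at 2 months of 2.96 ± 0.76 (SE, adjusted p = 0.0129). H2-Aa and H2-Ab1 rose by 3.35 and 2.97 (adjusted p = 0.000987 and 0.000233), and H2-DMb1 fell (-1.17, adjusted p = 0.00786). Class II levels were low, with H2-Aa at 4.42 and 4.36 CPM in aged EpdSC, 7.41 and 8.29 CPM in young EpdSC, 1.54 and 1.78 CPM in aged HFSC and 0.233 and 1.34 CPM in young HFSC. The 9 Langerhans and myeloid markers summed to 4.13 to 6.01 CPM in EpdSC and 3.58 to 5.23 CPM in HFSC. Cd207, which marks Langerhans cells, had 0.64 and 0.90 CPM in aged EpdSC, 0.78 and 1.00 CPM in young EpdSC, 0.21 and 0.46 CPM in aged HFSC and 0.17 and 0.04 CPM in young HFSC. The part of such cells in the class II values was not tested. Suprabasal keratinocyte markers, 4 genes summed, had 1508 to 2838 CPM in EpdSC and 129 to 328 CPM in HFSC. Their sum thus also moved with the cell type, carried by Krt1 and Krt10. Sbsn went the other way, with 35.3 to 48.7 CPM in EpdSC and 96.5 to 112 CPM in HFSC, and Lor overlapped. Fibroblast markers, 5 genes summed, had 0.947 to 4.83 CPM in EpdSC and 7.73 to 18.8 CPM in HFSC, where Col1a1 was the largest part. Melanocyte markers, 4 genes summed, had 2.21 to 4.96 CPM in EpdSC and 15.6 to 30.5 CPM in HFSC. Their part in the RNA differences was not tested.

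**Figure D4:**
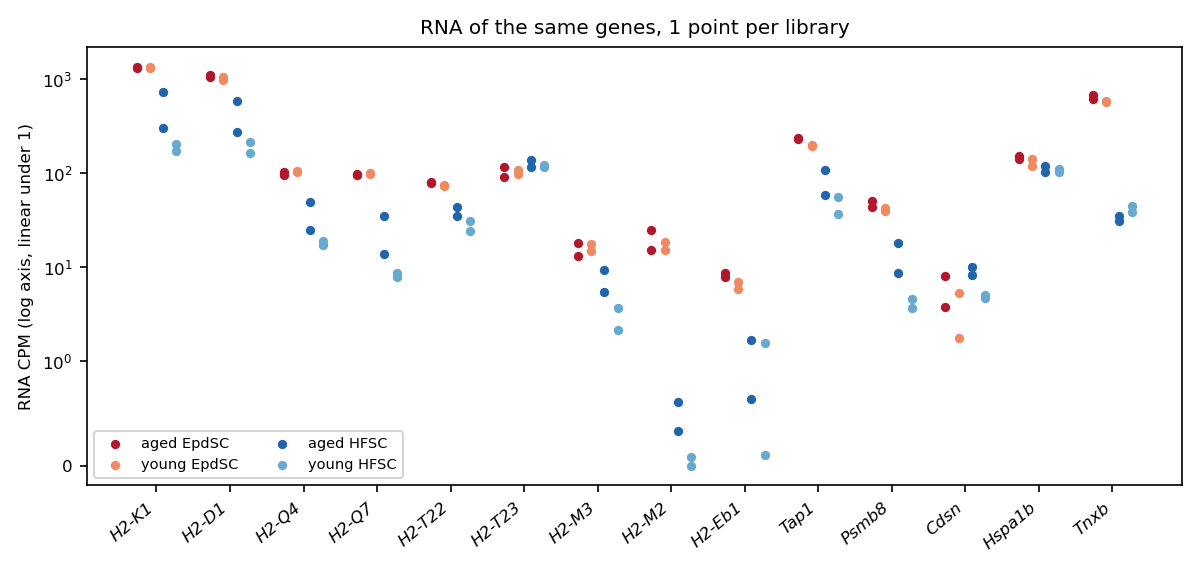
RNA CPM of the genes in the plot of start sites, 1 point per library, on a log axis that is linear under 1 CPM. Each class I gene except H2-T23, each processing gene, H2-Eb1 and Tnxb has its 4 EpdSC points above its HFSC points, while Cdsn overlaps.

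RNA and start-site differences ran together only loosely. Over 117 locus genes at 2 months Spearman's rho was 0.15 and Pearson's r was 0.32, against 0.32 and 0.47 over 12938 genes. At 24 months rho was 0.28 over 110 locus genes and 0.42 over 12136. These are correlations across genes, which are not independent replicates, and the libraries are shared by all of them. Some genes departed far from a common line. Tnxb RNA had 607 and 683 CPM in aged EpdSC, 583 and 569 CPM in young EpdSC, 34.8 and 30.6 CPM in aged HFSC and 38.1 and 44.8 CPM in young HFSC, an edgeR change of 3.8 ± 0.16 (SE, adjusted p = 3.22e-08). The start site used for Tnxb, which lies inside the annotated gene, had only 1.53 CPM in aged EpdSC, 2.06 CPM in young EpdSC, 1.21 CPM in aged HFSC and 1.26 CPM in young HFSC. The regions that differed also lay inside the gene, among them chr17:34661001-34661500 near its low-coordinate end. Ddah2 RNA had 1.92 and 1.46 CPM in aged EpdSC, 2.06 and 2.07 CPM in young EpdSC, 25.1 and 21.6 CPM in aged HFSC and 27.0 and 38.2 CPM in young HFSC, a change of -3.98 ± 0.26 (SE, adjusted p = 5.07e-07), beside a start-site log2 ratio of -0.68. Cdsn was the reverse at the start site used, which was open in EpdSC, while the region nearest another annotated Cdsn start favoured HFSC (-1.46). Its RNA had 3.71 and 7.94 CPM in aged EpdSC, 1.76 and 5.26 CPM in young EpdSC, 8.32 and 10.104 CPM in aged HFSC and 4.73 and 5.04 CPM in young HFSC. The edgeR change was -0.48 ± 0.48 (SE, adjusted p = 0.536). Ier3 RNA fell by 1.92 on the log2 scale (adjusted p = 0.00174). Its own start region (chr17:35821001-35822000) had a log2 ratio of -0.51 (-0.70 to -0.31) and a region 7713 bases away one of -0.44 (-0.59 to -0.29), both in the direction of the RNA, unlike the region 24213 bases away.

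With age, 2 of the 146 locus genes rose in HFSC and 0 fell (0.294% and 0.0745% of all genes). They were Psmb8, with 1.69 ± 0.30 (SE, adjusted p = 0.0434), and Ly6g6c, a small GPI-anchored protein of the Ly6 family, with 1.75 ± 0.20 (SE, adjusted p = 0.0089), by edgeR. Ly6g6c RNA had 27.9 and 23.8 CPM in aged EpdSC, 26.2 and 23.4 CPM in young EpdSC, 9.86 and 10.33 CPM in aged HFSC and 3.13 and 2.87 CPM in young HFSC, and its start site had 8.2 CPM in aged EpdSC, 9.08 CPM in young EpdSC, 3.52 CPM in aged HFSC and 5.01 CPM in young HFSC. H2-K1 had a log2 fold change of 1.44 ± 0.30 (SE, adjusted p = 0.0818) and did not pass, nor did H2-D1 (1.18 ± 0.27 (SE, adjusted p = 0.127)) or H2-Q7 (1.57 ± 0.33 (SE, adjusted p = 0.0838)), although both aged HFSC libraries lay above both young ones in all 3. In aged over young HFSC, 20 locus genes (13.7%) had an unadjusted edgeR p under 0.05, against 7.68% of all genes. Of 17 class I genes 14 were higher in aged HFSC (11132 of 21464 over all genes), with a median log2 fold change of 1.02. In the same HFSC libraries summed markers of some other cell types were also higher in both aged libraries. T cell markers had 4.81 and 5.11 CPM in aged HFSC and 3.26 and 3.06 CPM in young HFSC, and Langerhans and myeloid markers 5.23 and 5.11 CPM and 3.61 and 3.58 CPM. Ptprc is in both of these lists and had 2.12 and 1.70 CPM in aged HFSC and 0.80 and 0.99 CPM in young HFSC. Fibroblast markers were lower, with 9.40 and 7.73 CPM in aged HFSC and 13.3 and 18.8 CPM in young HFSC, and endothelial markers overlapped. Among the suprabasal markers Sbsn was lower in both aged libraries. The 4 suprabasal markers summed to 284 and 328 CPM in aged HFSC and 129 and 193 CPM in young HFSC, and the 4 melanocyte markers to 29.8 and 30.5 CPM in aged HFSC and 15.6 and 16.5 CPM in young HFSC. Krt14, a basal keratin, had 2401 and 3688 CPM in aged HFSC and 2195 and 1782 CPM in young HFSC. Their part in the age differences was not tested. The count of 2 rested on single libraries, since 11 locus genes rose without the first aged HFSC library and 1 without the second, where the edgeR adjusted p of Psmb8 was 0.192. It was 6 and 5 without the first or the second young EpdSC library, which enter through the shared estimate of spread. With only the 4 HFSC libraries fitted 0 rose, and with a filter of 1 CPM 1 rose. DESeq2 called 12 locus genes, with an adjusted p of 0.0359 for H2-K1 and 5.4e-04 for H2-D1. In EpdSC 0 of 146 passed in either direction (0.0559% and 0.028% of all genes), 7 (4.79%) had an unadjusted p under 0.05, against 4.46% of all genes, and DESeq2 called 0. The difference between the age effects passed for 0 locus genes (0.0% of all genes higher, 0.00466% lower), 17 (11.6%) had an unadjusted p under 0.05, against 4.57% of all genes, and DESeq2 called 3, all lower.

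Presentation genes encoded elsewhere were read beside the locus. Of 20, 12 rose and 1 fell in young EpdSC by edgeR. B2m, the class I light chain, had 1724 and 1657 CPM in aged EpdSC, 1508 and 1481 CPM in young EpdSC, 554 and 1135 CPM in aged HFSC and 282 and 307 CPM in young HFSC, a log2 fold change of 2.34 ± 0.26 (SE, adjusted p = 4.15e-05), and its start had 36.2 CPM in aged EpdSC, 33.2 CPM in young EpdSC, 13.8 CPM in aged HFSC and 19.6 CPM in young HFSC. Nlrc5, the class I transactivator, changed by 3.62 ± 0.22 (SE, adjusted p = 2.8e-07) and Irf1, an interferon-induced factor, by 1.77 ± 0.18 (SE, adjusted p = 2.26e-05). The start of Irf1 had 24.5 CPM in aged EpdSC, 25.9 CPM in young EpdSC, 6.79 CPM in aged HFSC and 8.64 CPM in young HFSC, a log2 ratio at 2 months of 1.58 (1.37 to 1.80). Ciita, the class II transactivator, changed by 0.19 ± 0.57 (SE, adjusted p = 0.865) and did not pass. In aged against young HFSC the same edgeR test called 3 of the 20: B2m, Nlrc5 and Irf1 (adjusted p = 0.0363 for each).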

How the data were processed

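ATAC-seq and bulk RNA-seq were read from 12 of 14 samples; 2 single-cell libraries were not used. The authors deposited raw ATAC counts in windows of 500 bases at steps of 250 and raw RNA read counts per gene. STAR, Bowtie and mm10 are named without role, per the submitters' processing notes; duplicate removal, mapping filters, any shift for the transposase, strand setting and annotation are steps that the sources used here do not give. Alternate windows that do not overlap were kept, scaled to CPM and joined into regions where open. Ratios used a pseudocount of 0.5 counts, with exact binomial 95% intervals; since reads carried no molecular identifiers, they cover counting error only. RNA was fitted over 8 libraries with edgeR 4.0.16 (R 4.3.3; TMM, low counts filtered), called at an adjusted p under 0.05, with DESeq2 1.42.0 as an alternative. Scripts used Python 3.11.15 and were tested on simulated data. Locus, lists and tests were chosen with earlier results of these data known. Named by rule were the processing, heat shock, main class I and class II genes, the largest start-site and region ratios per comparison, the 5 highest regions and locus genes called with age. The other regions and genes named (those inside Tnxb and near Ubd, Ier3, H2-T23 and 1700031A10Rik, Ddah2, Ier3, H2-T10, Zbtb22, Irf1, B2m, Nlrc5 and Ciita) were chosen after their values were seen. Sequences came from RefSeq promoters on GRCm38.p6.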

Additional observations from a re-analysis of the deposited data

Results flagged for a closer look

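The open region inside Gabbr1 (chr17:37061501-37062000) had age effects of opposite sign in the sorted populations. It had 3.10 CPM in aged EpdSC (71 counts) against 1.74 CPM in young EpdSC (65 counts), and 2.06 CPM in aged HFSC (17 counts) against 11.5 CPM in young HFSC (301 counts). Relative to the median of all open windows, the log2 ratio of aged over young was 0.73 (95% interval 0.23 to 1.24) in EpdSC and -1.44 (-2.28 to -0.78) in HFSC, a difference of 2.17. With 1 library per group this difference was not tested.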

How the results depend on the processing

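In these ATAC data, 1 library per group and the low signal of aged HFSC limit every comparison, and the cause of the changes below was not tested. Open windows of the locus at 2 CPM were 383 in aged EpdSC, 364 in young EpdSC, 177 in aged HFSC and 271 in young HFSC, and at 8 CPM they were 71, 55, 11 and 64 in that order. With autosomes alone as the total, the locus held 3374, 3171, 2135 and 2759 CPM in that order, and the other frame of windows gave 3097 CPM in young EpdSC. The genome's share stands in brackets after each count of windows. Windows higher in EpdSC at 24 months were 77 of 386 at 2 CPM (26.5%), 10 of 71 at 8 CPM (21.3%), 114 of 202 at 2-fold (64.4%), 13 of 189 with TMM scaling (6.03%) and 14 of 202 relative to the median of all windows (6.92%), an alternative added after seeing the data. Lower ones were 2 at 2 CPM (6.94%), 2 at 2-fold (5.83%), 4 with TMM (16.6%) and 4 relative to the median (6.51%). At 2 months, higher windows were 43 of 392 at 2 CPM (16.0%), 3 of 77 at 8 CPM (7.05%), 43 of 205 at 2-fold (23.9%) and 11 of 169 with TMM (9.91%), and lower ones 11 at 2 CPM (14.9%), 1 at 8 CPM (13.0%) and 7 at 2-fold (20.4%). Windows lower in aged HFSC were 4 of 273 at 2 CPM (3.31%), 59 of 140 at 2-fold (49.9%), 0 of 153 with TMM (0.128%), 0 of 140 relative to the median (0.133%), 2 of 145 after thinning (3.49%) and 2 of 135 in the other frame (2.74%). Windows higher in aged EpdSC were 1 of 401 at 2 CPM (0.062%) and 2 of 208 at 2-fold (0.565%). Among single genes and regions, 266 ATAC values moved by less than their error and 10 by more, and of the RNA values 130 kept their call, 20 gained it and 6 lost it, with no sign reversed.

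For RNA in aged HFSC, the count of locus genes that rose was 12 with no filter, 1 with a filter of 1 CPM, 0 with only the 4 libraries compared and 12 with DESeq2. Over all genes, 470, 7 and 273 rose and 192, 2 and 94 fell with no filter, with the 4 libraries and with DESeq2, and 9 fell with the 1 CPM filter. In aged EpdSC, 1 locus gene rose with no filter. Over all genes, 159 rose and 80 fell with no filter, 7 and 3 with the 1 CPM filter, 3 and 0 with the 4 libraries, and 60 and 25 with DESeq2. For the difference between age effects, 11 locus genes were lower with no filter and 3 with DESeq2, and over all genes 85 were higher and 200 lower with no filter, against 29 and 58 with DESeq2. Same-numbered libraries did not deviate together across groups (correlations of -0.21 to 0.17), so the numbers were not taken as pairs. With the replicate block, 6 locus genes rose in aged HFSC, over all genes 123 rose and 37 fell, and for the difference 1 was higher and 2 lower.

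Leaving out each RNA library in turn, locus genes that rose in EpdSC numbered 20 to 32 at 24 months and 22 to 33 at 2 months, and those that fell 2 to 8 and 5 to 9. In aged HFSC 1 to 11 rose and 0 fell, in aged EpdSC 0 rose and 0 fell, and for the difference 0 were higher and 0 to 6 lower. Over all genes, 1784 to 3007 rose and 1822 to 2520 fell in EpdSC at 24 months, and 1685 to 3216 rose and 1983 to 2745 fell at 2 months. In aged HFSC 10 to 137 rose and 2 to 44 fell, in aged EpdSC 4 to 21 rose and 2 to 10 fell, and for the difference 0 to 14 were higher and 0 to 49 lower. The 6 at the end of that locus range came without the first aged HFSC library, and the 2 that fell at 24 months without the first aged EpdSC library.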
